A study of Mus musculus with 5 samples.

Results

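The genes described here encode the GABA-B receptor and its auxiliary subunits. They were chosen by symbol, and all 5 of them (Gabbr1, Gabbr2, Kctd8, Kctd12 and Kctd16) were found among the 23420 gene symbols of the files. They were chosen with earlier results of these data known, and the choice rested in part on Gabbr2 having different values in complex environment and low running mice. The values of that pair of groups are therefore given as a description.

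RNA was taken from the dentate gyrus (DG) of male wild-type CD1 mice, an outbred strain, after 4 weeks of housing. The labels give an age of 4 months, and the methods give a younger age without saying whether it was that at the start of housing. The study asked whether running and enrichment without running act differently on DG transcripts. LD mice (locked disc) lived alone with a disk that could not turn, RUN mice (exercise) lived alone with a disk that turned, and CE mice (complex environment) shared cages that held a locked disk and tunnels. The low runners (L-RUN) and high runners (H-RUN) were the RUN mice with the shortest and the longest distances. Each of the 5 groups was sequenced as 1 library of RNA pooled from 8 mice (LD, CE and RUN) or 4 mice (L-RUN and H-RUN), so the animals of both 4-mouse pools were also in RUN. No group had a replicate, and CE differed from LD in both company and tunnels, which cannot be told apart.

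Values are regularized log (rlog) values on the log2 scale, and a gene was called where its difference between libraries was at least 0.3 in size, the threshold that the study used. The only error available is technical. It was computed from how far RUN lay from the mean of its low and high runner pools over 13550 expressed genes, those with a mean rlog of at least 5. This technical SD of a difference was 0.0365 over all expressed genes and lay between 0.022 and 0.047 across deciles of expression. It holds no variation between mice, and a difference of 1 or 2 technical SDs can come from technical noise alone. Sequencing depth is unknown from the files, and no p-value could be computed.

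GABA-B receptors are the G protein-coupled receptors for GABA, the main inhibitory transmitter of the brain. They work as a pair: the Gabbr1 product binds GABA, and the Gabbr2 product carries its partner to the cell surface and couples to inhibitory G proteins. The released beta-gamma subunits open GIRK potassium channels in dendrites and close calcium channels in terminals, while the alpha subunit restrains adenylyl cyclase. Kctd proteins sit on the tail of the Gabbr2 product and hold the beta-gamma subunits, and the Kctd12 product is known to make the potassium current desensitize.

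The starts of 3 of the genes are shown because Gabbr1 and Gabbr2 encode the pair that works together but had different spreads across libraries, and Kctd12 is the most abundant of the auxiliary subunits. The bases lie directly before the first annotated exon base, come from RefSeq on GRCm38.p6 (the mm10 assembly) and are written 5′ to 3′ on the strand of the gene. Capitals mark the GC box GGGCGG on either strand. The Gabbr1 stretch is chr17:37045716-37045965 on the plus strand, the Gabbr2 stretch is chr4:46991874-46991964 on the minus strand, and the Kctd12 stretch is chr14:102982638-102982887 on the minus strand. The Gabbr2 stretch is shorter because GENCODE starts the gene further upstream than RefSeq does.
Gabbr1: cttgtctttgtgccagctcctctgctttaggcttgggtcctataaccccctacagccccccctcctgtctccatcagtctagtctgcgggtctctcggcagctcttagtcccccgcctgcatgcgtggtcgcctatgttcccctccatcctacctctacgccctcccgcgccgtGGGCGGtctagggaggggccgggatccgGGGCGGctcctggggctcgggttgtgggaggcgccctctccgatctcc
Gabbr2: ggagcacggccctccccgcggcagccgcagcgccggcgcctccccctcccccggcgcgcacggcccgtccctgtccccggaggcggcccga
Kctd12: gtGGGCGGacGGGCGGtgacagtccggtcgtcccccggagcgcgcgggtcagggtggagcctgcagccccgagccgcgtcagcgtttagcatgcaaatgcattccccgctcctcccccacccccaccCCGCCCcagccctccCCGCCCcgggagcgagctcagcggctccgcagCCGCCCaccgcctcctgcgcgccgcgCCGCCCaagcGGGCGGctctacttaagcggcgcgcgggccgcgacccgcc

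In the full 250 bases before the RefSeq start, the GC content was 66% for Gabbr1, 80.8% for Gabbr2, 77.6% for Kctd12 and 53.6% for Kctd8, against a median of 52.4% over 32851 windows of 27025 genes. The GC box was found 7 times for Kctd12, 2 times each for Gabbr1 and Gabbr2 and 0 times for Kctd8, and 32.7% of all windows held it. Those of Gabbr2 lie past the 91 bases printed above, within the gene as GENCODE annotates it. The cyclic AMP response element TGACGTCA, present in 1.55% of all windows, was found once, in Kctd8. The TATA box TATAAA was in 0 of these 4 windows and in 12.4% of all. Both strands were searched for each motif, none of these motifs contains another, and a match is a description of the letters only.

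Across the 5 libraries, the levels of the members differed widely. Gabbr1 had a mean rlog of 14.16, above 98.9% of expressed genes, followed by Kctd12 at 12.92 and Gabbr2 at 12.40. Kctd16 had a mean rlog of 7.26, and Kctd8, at 6.42, was above 9.97% of expressed genes. Divided by the length of the merged exons in kilobases, the log2 level was 11.20 for Gabbr1, 10.32 for Kctd12, 9.66 for Gabbr2, 5.46 for Kctd16 and 4.66 for Kctd8. The RefSeq gene of Kctd16 runs 15628 bases past the end of the GENCODE gene whose length was used, so the order of Kctd16 and Kctd8 depends on the annotation. Shrinkage by the rlog pulls values of low genes towards their mean, and the differences of Kctd8 and Kctd16 are more affected than those of the other members.

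**Figure D1:**
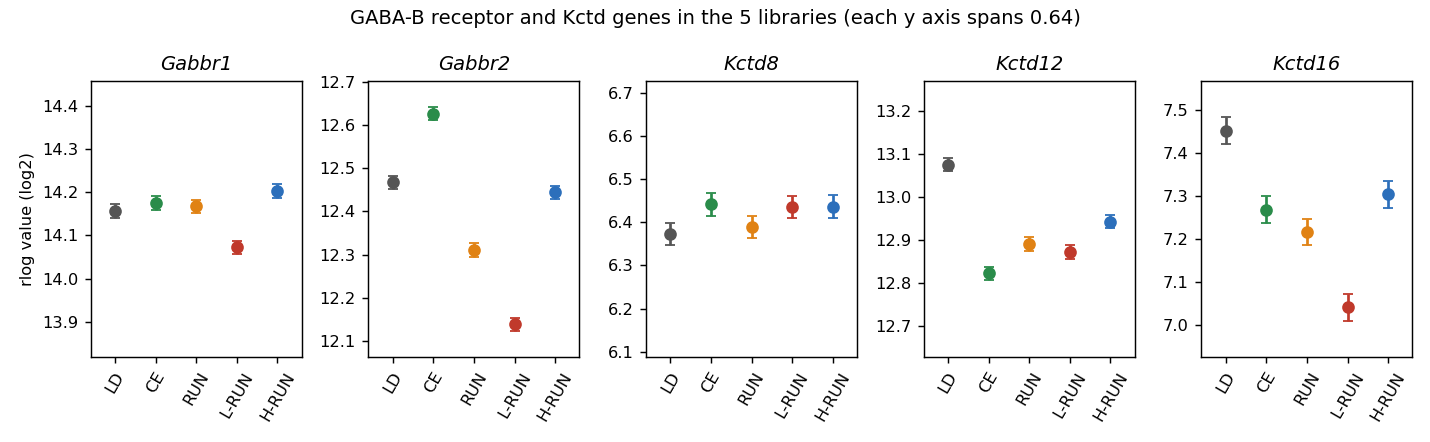
Rlog value (log2) of each GABA-B receptor and Kctd gene in the 5 libraries, 1 point per library. Bars show the technical SD of a single library, which holds no variation between mice, and Gabbr2 spans 0.49 from L-RUN to CE while Kctd8 spans 0.07.

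Gabbr2 (ENSMUSG00000039809, chromosome 4, 46662305 to 46991873, minus strand) was the member with the widest range. Its rlog value was 12.47 in LD and 12.63 in CE, against 12.31 in RUN, with 12.14 for the low and 12.44 for the high runners. CE was thus the highest library and L-RUN the lowest, and LD and H-RUN differed by -0.02 (H-RUN minus LD), about the technical SD of 0.022. Against LD, Gabbr2 differed by -0.33 in L-RUN on the log2 scale (0.796 times the LD level), or -14.8 technical SDs. In CE it was 0.16 higher (1.12-fold) and in RUN the difference was -0.16 (0.897-fold), and neither reached the cut-off. Between CE and L-RUN, the pair on which the gene was chosen, the difference was 0.49. In bulk tissue, fewer cells of a type that express a gene cannot be told apart from less of its RNA per cell.

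Gabbr1 (ENSMUSG00000024462, chromosome 17, 37045966 to 37075067, plus strand) encodes the subunit that binds GABA. Its rlog value was 14.16 in LD and 14.18 in CE, against 14.17 in RUN, with 14.07 for the low and 14.20 for the high runners. It did not reach the cut-off in any comparison. L-RUN was again the lowest library, with a difference from LD of -0.08 (-0.05 with quantile normalization and -0.03 with the trend on transcript length removed), and the other 4 libraries lay within 0.05 of each other. The isoforms of this gene, which start at different promoters, are summed in these values.

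Because the receptor needs both subunits, Gabbr2 was also set against Gabbr1 within each library, which cancels what both transcripts share. The log2 difference of Gabbr2 minus Gabbr1 was -1.69 in LD and -1.55 in CE, against -1.86 in RUN, with -1.93 for the low and -1.76 for the high runners. Relative to LD, this log2 difference moved by 0.14 in CE and -0.17 in RUN, with -0.24 (0.844-fold) for the low and -0.07 for the high runners. CE and L-RUN differed by 0.39 in this measure (1.31-fold), less than the 0.49 of Gabbr2 alone, and Gabbr1 differed by 0.10. Gabbr2 was chosen on this pair of groups, so the gap between them in this measure largely repeats that choice and is a description.

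**Figure D2:**
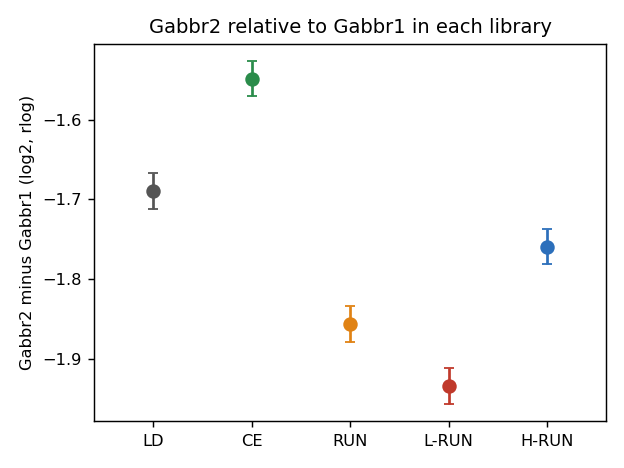
Gabbr2 minus Gabbr1 (log2, from rlog values) in each library, 1 point per library. Bars show the technical SD of a difference for genes at this level, and the points run from -1.93 in L-RUN to -1.55 in CE. These are the groups on which Gabbr2 was chosen.

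Among the auxiliary subunits, Kctd16 (ENSMUSG00000051401, chromosome 18, 40256962 to 40531630, plus strand) had the widest range. Its rlog value was 7.45 in LD and 7.27 in CE, against 7.22 in RUN, with 7.04 for the low and 7.30 for the high runners. LD was the highest library and L-RUN the lowest, while CE, RUN and H-RUN lay between 7.22 and 7.30. The difference from LD was -0.41 in L-RUN (0.753-fold, technical SD 0.044), which passed the cut-off, and -0.23 in RUN, -0.18 in CE and -0.15 for the high runners, which did not. An exon of an annotated antisense transcript shares 360 bases with Kctd16, and the sources used here do not say that reads were counted by strand.

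Kctd12 (ENSMUSG00000098557, chromosome 14, 102976581 to 102982637, minus strand) encodes the subunit linked to desensitization. Its rlog value was 13.07 in LD and 12.82 in CE, against 12.89 in RUN, with 12.87 for the low and 12.94 for the high runners. LD was the highest library and CE, not L-RUN, the lowest. The difference from LD was -0.25 in CE (0.840-fold), -0.18 in RUN, -0.20 for the low and -0.13 for the high runners, from -5.95 to -11.4 technical SDs, and it did not reach the cut-off in any group. All these differences were taken against the same LD library. Against the mean of LD and CE, Kctd12 was at -0.06 in RUN, -0.08 for the low and -0.006 for the high runners. Because CE was the lowest library for Kctd12, that mean lies below LD, which by itself makes these differences smaller. With the trend on transcript length removed, the L-RUN difference of Kctd12 from LD was -0.13. A long non-coding RNA on the opposite strand shares 3805 exon bases with Kctd12, and reads of the pair cannot be told apart without strand. A microRNA gene also lies within the exon of Kctd12, and another, on the opposite strand, within an exon of Kctd8.

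Kctd8 (ENSMUSG00000037653, chromosome 5, 69109285 to 69341679, minus strand) encodes a further subunit of this group. Its rlog value was 6.37 in LD and 6.44 in CE, against 6.39 in RUN, with 6.43 for the low and 6.44 for the high runners. Every difference between Kctd8 and its LD value was at most 0.07, within 1.86 technical SDs, so no difference was detectable at this expression level. On the linear scale per kilobase, Kctd12 made up between 94.5% (CE) and 95.1% (L-RUN) of the sum of Kctd8, Kctd12 and Kctd16, and Kctd16 between 2.91% (L-RUN) and 3.50% (CE). These shares used GENCODE lengths, and the RefSeq gene of Kctd16 runs further, so its share depends on the annotation.

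In the comparisons with LD, 0 of the 5 members were called in CE, where 0.598% of expressed genes were called, 0 in RUN (1.31% of expressed genes), 2 in L-RUN (3.13%) and 0 in H-RUN (0.827%). The 2 members called in L-RUN were Gabbr2 and Kctd16, both lower. The median difference over the members was 0.02 in CE and -0.16 in RUN, with -0.20 for the low and -0.02 for the high runners, while the median over all expressed genes lay within 0.004 of 0 in each. With 5 members picked with results known, these counts describe the members and are no test.

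**Figure D3:**
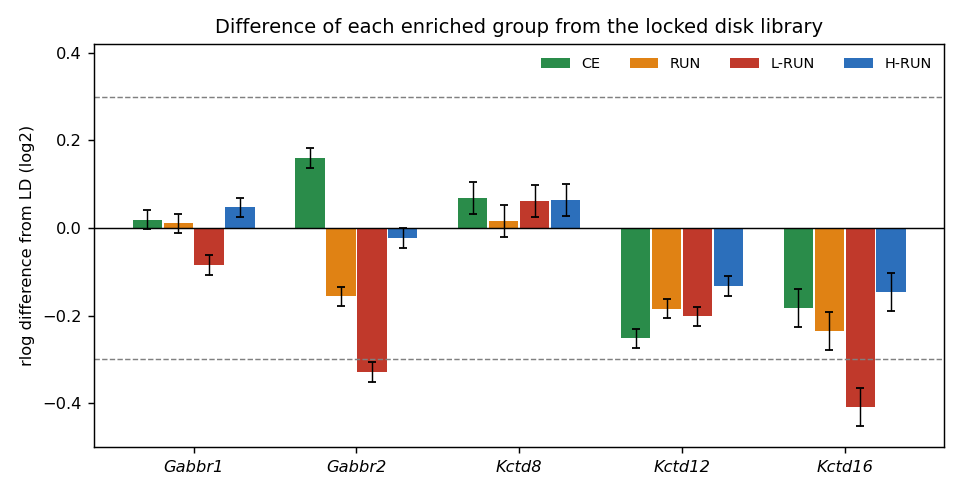
Rlog difference (log2) from the LD library for each member in the other 4 groups. Bars are the differences of single libraries, error bars the technical SD, and dashed lines the cut-off of 0.3, passed by Gabbr2 (-0.33) and Kctd16 (-0.41) in L-RUN.

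Directly between enriched groups, Gabbr2 was the 1 member called in CE against L-RUN (0.49; 1.89% of expressed genes called), H-RUN against L-RUN (0.31; 1.54%) and CE against RUN (0.32; 0.834%). In H-RUN against CE, 0 of 5 were called (1.06% of expressed genes), and Gabbr2 differed by -0.18. Kctd16 was 0.26 higher in H-RUN than in L-RUN and 0.23 higher in CE than in L-RUN. These comparisons share libraries with each other and with those against LD. As a check on the pools, the RUN value of the members differed from the mean of the low and high runner pools by -0.05 (Kctd8) to 0.04 (Kctd16).

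The calls of Gabbr2 near the cut-off depended on the processing. With the trend of the difference on transcript length removed, Gabbr2 in L-RUN was -0.26 from LD, below the cut-off, and with quantile normalization it was -0.30 (-0.295), also just below. Kctd16 kept its call under both, at -0.43 and -0.42. The -0.43 used the GENCODE transcript length of Kctd16. Its RefSeq gene runs 15628 bases past the GENCODE end, so this value depends on the annotation. The length of the longest transcript moved with the L-RUN difference over 12765 expressed genes (Spearman rho -0.51, a description across genes). Longest transcripts measured 5248 bases for Gabbr1, 5750 for Gabbr2, 2859 for Kctd8, 6057 for Kctd12 and 2767 for Kctd16, and at these lengths the trend was -0.05 for Gabbr1, -0.07 for Gabbr2, 0.01 for Kctd8, -0.07 for Kctd12 and 0.02 for Kctd16. The part of transcript length in the values of the members was not tested further.

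**Figure D4:**
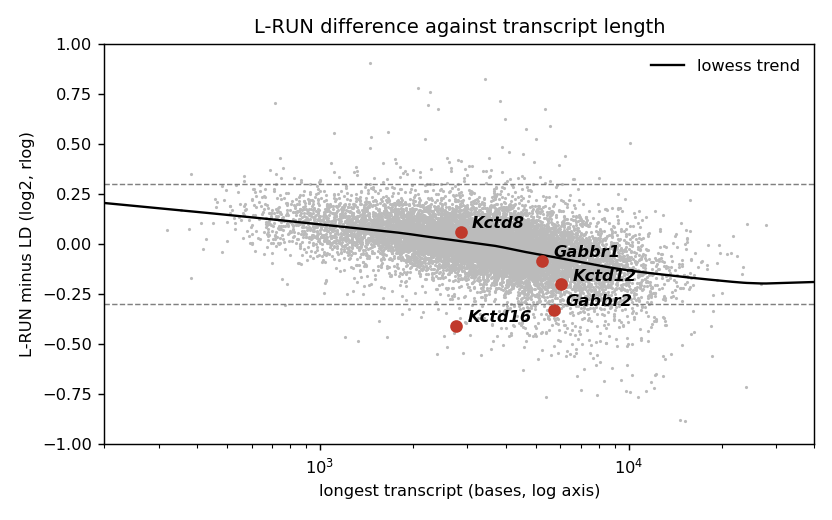
L-RUN minus LD (log2, from rlog values) against the longest annotated transcript (bases, log axis) for expressed genes in grey, with the members in red, the lowess trend as a line and the cut-off of 0.3 dashed; 9 genes lie outside the axes. Gabbr2 and Kctd16 lie below the dashed line at -0.3. Kctd16 has the shortest GENCODE transcript of the members, but its RefSeq gene runs further than the GENCODE gene.

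Downstream of the receptor, the listed effectors were the channels and cyclases on which its G proteins act. Of 9 listed effectors 8 were expressed, and Kcnj5 was not. In L-RUN 4 of these 8 were called lower and 0 higher, with a list median of -0.24, where 3.13% of all expressed genes were called (316 lower and 108 higher) and their median was -0.002. The effector list was chosen with earlier results of these data known, so its counts are a description and no test. Kcnj6 (GIRK channel) had rlog values of 10.37 in LD and 10.19 in CE, against 10.11 in RUN, with 9.88 for the low and 10.28 for the high runners, and its L-RUN difference was -0.49. Kcnj3, the gene of its usual partner subunit, had 10.77 in LD and 10.59 in CE, against 10.59 in RUN, with 10.32 for the low and 10.69 for the high runners, a difference of -0.45 in L-RUN. L-RUN was the lowest library for both. Kcnj9, a further GIRK gene named after its values were seen, differed from LD by -0.01 in L-RUN and 0.16 in CE. Cacna1b, the pore of the N-type calcium channel, was -0.32 and Adcy1, a calmodulin-stimulated adenylyl cyclase, -0.37 in L-RUN. With the length trend removed, 2 of these 4 remained past the cut-off: Kcnj6 (-0.48) and Kcnj3 (-0.39), against -0.19 for Cacna1b and -0.22 for Adcy1. In CE, 1 effector was called, Adcy1 at -0.30, which was -0.23 with the length trend removed, and 0 were called in either RUN or H-RUN. Adcy1 had rlog values of 15.62 in LD and 15.32 in CE, against 15.42 in RUN, with 15.25 for the low and 15.56 for the high runners, so CE and L-RUN were its lowest libraries. Between the runner pools, 3 effectors were called higher in H-RUN than in L-RUN and 0 lower (1.54% of all expressed genes called), and 2 of the 3 with the length trend removed, when Adcy1 went from 0.30 to 0.23.

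The 12 G protein subunit genes showed no called difference from LD in any group. That is near the background of 0.598% (CE) to 3.13% (L-RUN) of all expressed genes called. The extremes of these 12 genes against LD were the gamma subunit gene Gng3 at 0.22 in CE and Gnai1 at -0.16 in RUN. Gnai2 was 0.19 higher in CE, and Gng7 was -0.13 in L-RUN. Of the 7 regulators of G protein signalling, Rgs4, which speeds the shut-off of Gi/o proteins, was called higher in RUN (0.37), L-RUN (0.38) and H-RUN (0.42) and differed by -0.02 in CE. Rgs4 had rlog values of 12.03 in LD and 12.01 in CE, against 12.40 in RUN, with 12.41 for the low and 12.45 for the high runners, so the running libraries lay together, above LD and CE. Rgs7bp, the membrane anchor of a related regulator, was called lower in L-RUN at -0.37, and at -0.28 with the length trend removed it was not. Gpr158, whose product binds Rgs7, was at -0.20 in L-RUN, and Rgs6 at 0.16 in H-RUN.

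Of 13 receptor partners and trafficking genes, 1 was called lower in L-RUN and 0 in the other comparisons with LD. It was Camk2a, the kinase subunit of excitatory synapses, at -0.31, and at -0.26 with the length trend removed. Prkaa2, an AMP-activated kinase subunit, was at -0.25, the vesicle fusion ATPase gene Nsf at -0.22 in L-RUN, and Pianp, whose product binds the GABA-B1 subunit, at 0.21 in CE. Of 7 genes for GABA synthesis and transport, Slc6a13 (a GABA transporter known from the meninges) was called higher in RUN (0.41) and L-RUN (0.69). It was the 1 gene of the 7 called against LD, where 1.31% (RUN) and 3.13% (L-RUN) of all expressed genes were called. Slc6a11, an astrocyte GABA transporter, differed from LD by 0.14 in CE and -0.25 in RUN, with -0.24 for the low and -0.15 for the high runners, and was not called. It was called higher in CE than in L-RUN (0.37) and than in RUN (0.38). Slc32a1, the vesicular transporter, was closer to LD in L-RUN (-0.03).

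**Figure D5:**
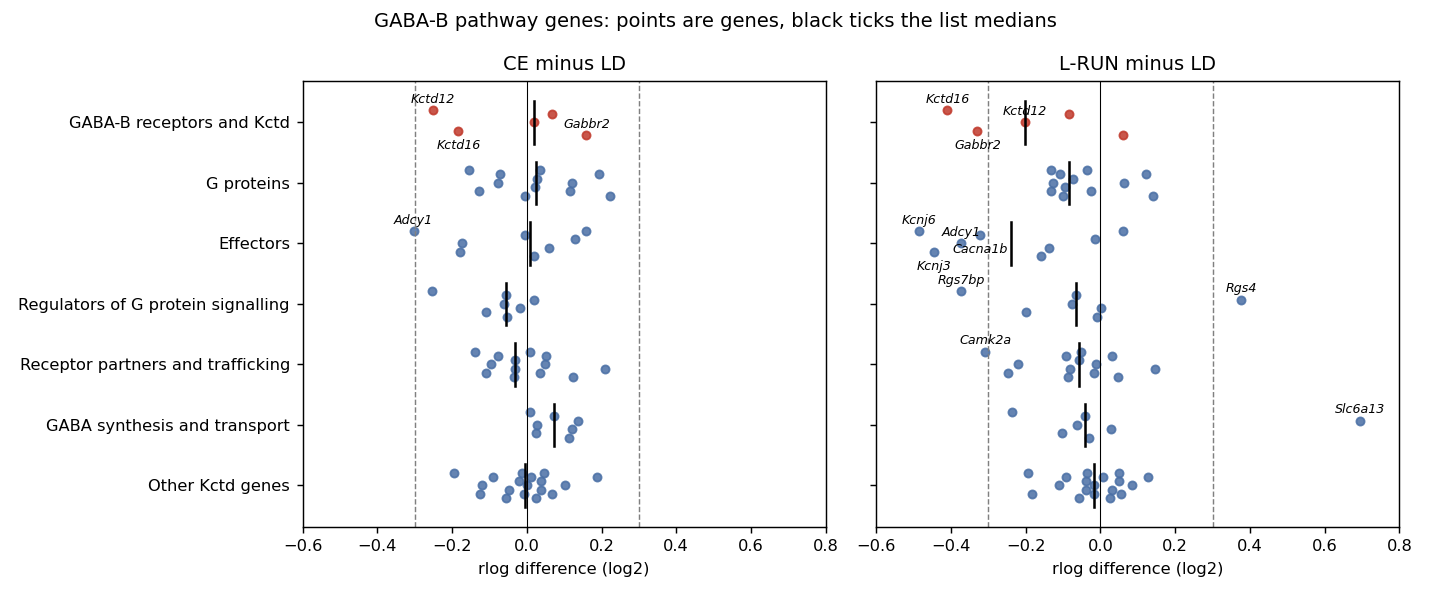
Rlog difference (log2) from LD in CE (left) and L-RUN (right) for the members in red and the pathway lists in blue, 1 point per expressed gene, with list medians as black ticks and the cut-off of 0.3 dashed. In L-RUN the effector list has a median of -0.24 with 4 genes below the cut-off, and in CE the 1 called gene is Adcy1. The lists were chosen with earlier results of these data known.

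The genes with a pattern most like that of Gabbr2 were sought among 693 expressed genes with a range of at least 0.3, by the root mean square difference of mean-centred rlog values over the 5 libraries. The closest were the transcription factor Nfix (0.027), the sodium-calcium exchanger Slc8a1 (0.035), the postsynaptic scaffold Shank1 (0.035), Pcdhgc3 (0.038) and the glutamate delta receptor Grid1 (0.040). Nfix had rlog values of 11.32 in LD and 11.42 in CE, against 11.13 in RUN, with 10.96 for the low and 11.31 for the high runners, the same order of libraries as Gabbr2. For Kctd16 the closest were Nupl1 (0.011), Zkscan16 (0.013) and Ddi2 (0.014), and for Kctd12 Zbtb1 (0.031), Jhdm1d (0.035) and C230091D08Rik (0.038). Gabbr1 and Kctd8 had ranges of 0.13 and 0.07, and their closest genes, which had to span at least 0.3, lay farther off: Hunk (0.062), Nckap1 (0.064) and Sema7a (0.064) for Gabbr1, and Mif (0.081), Rpl37 (0.087) and Igsf21 (0.088) for Kctd8. Likeness over 5 libraries, of which RUN repeats animals of the runner pools, is a description.

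Markers of other cells in the dissection moved beside these values. All markers of 8 cell types were expressed, granule cells of the DG among them. Of 6 markers of CA pyramidal cells, which are not DG cells, 3 were called lower in L-RUN and 0 higher (Neurod6 -0.34, Spink8 -0.30, Fibcd1 -0.46), where 3.13% of all expressed genes were called. Coch was at 0.20 in L-RUN, and Fibcd1 was also lower in RUN (-0.46) and H-RUN (-0.52) and higher in CE (0.31). The log2 of their summed level was 12.58 in LD and 12.66 in CE, against 12.45 in RUN, with 12.28 for the low and 12.58 for the high runners. CE was the highest and L-RUN the lowest library in this sum, as for Gabbr2, but of the 6 markers 1 (Grik4) had both. The summed level of 7 granule cell markers lay between 14.59 (CE) and 14.67 (LD and L-RUN), but in L-RUN 2 of them were called higher (C1ql2 0.37, Plk5 0.36) and 1 lower (Prox1 -0.41). The summed level of 7 inhibitory interneuron markers lay between 14.15 (H-RUN) and 14.25 (CE). Of 8 leptomeningeal markers 5 were called higher in L-RUN, with sums of 11.12 in LD and 11.37 in CE, against 11.24 in RUN, with 11.52 for the low and 10.96 for the high runners, and Slc6a13 was highest in the same library. The sum of 5 oligodendrocyte markers was 14.91 in LD and lowest in L-RUN, at 14.68, with all 5 between -0.23 and -0.16 and 0 called. Sums were also lowest in L-RUN for astrocytes (15.56, against 15.68 in LD) and microglia (12.36, against 12.52), and for endothelium they lay between 11.58 (CE) and 11.67 (LD). The part of these cells in the values of Gabbr2, Kctd16, the effectors and Slc6a13 was not tested.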

How the data were processed

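DG RNA of 5 pools was sequenced, 1 library per group, with groups taken from the titles of the samples and the make-up of the pools from the methods of the study. Per the methods and the submitters' processing notes, the authors removed adapters, mapped reads to mm10 (TopHat2 2.0.10), counted reads per RefSeq gene (HTSeq) and normalized the 5 libraries together (DESeq2 1.10.1); CASAVA 1.8.2 is also named. They deposited 1 regularized log value per gene and library, on the log2 scale, which was used as it is. The shrinkage cannot be undone, and without counts the depth and its precision are unknown.

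Differences between libraries were computed for 13550 genes with a mean rlog of at least 5 in 8 comparisons, and genes were called at 0.3. The technical SD of a difference came from RUN minus the log2 of the linear mean of the runner pools, by the median absolute deviation per decile. Lengths and positions came from GENCODE M21 (GRCm38), and a length was matched for 94.2% of expressed genes. The trend on length was a lowess curve (fraction 0.3). Start sequences came from RefSeq, matched by symbol for 4 of the 5 members. Named genes were the members, up to 4 genes of each pathway list with the largest difference against LD or between CE and L-RUN, and the 5 genes most like Gabbr2 and 3 most like each other member. One gene that this rule names is not reported here. Calls and markers outside this rule were named because few were counted. The members and lists were chosen with earlier results of these data known. Alternatives were other cut-offs, median centring, quantile normalization, other filters, another baseline, the removed length trend, another mixture and other measures of likeness. Scripts were tested on simulated data and used python 3.11.15, numpy 2.4.6, pandas 2.3.3, statsmodels 0.14.6 and matplotlib 3.10.9.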

Additional observations from a re-analysis of the deposited data

Results flagged for a closer look

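Gabbr2 was higher than LD in CE, by 0.16 on the log2 scale, and lower in RUN (-0.16) and in L-RUN (-0.33), each by at least 3 technical SDs. It was the 1 member of the 5 with opposite directions of this size. Each direction rests on 1 library, all were taken against the same LD library, and the difference between the groups was not tested. The gene was chosen with this pattern known.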

How the results depend on the processing

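Of 207 values of the members under 6 alternatives, 170 stayed within the technical SD of the value reported, 37 moved by more and 0 called values changed sign. The sign was checked for called values only, which were few. Small values that were not called could change sign, as Gabbr2 in H-RUN against LD did with the length trend removed (-0.02 to 0.01). Most of the 170 could not have moved. The other filters leave the value of a gene as it is, and median centring shifts it by less than any technical SD. Those that moved were 18 of 40 with the length trend removed, 9 of 15 with LD and CE averaged as baseline and 10 of 40 with quantile normalization. The numbers of called genes moved with the cut-off. At 0.4 they were 25 (CE), 52 (RUN), 184 (L-RUN) and 38 (H-RUN) against LD, and 86 (CE against L-RUN), 81 (H-RUN against L-RUN), 34 (CE against RUN) and 64 (H-RUN against CE), in place of 81, 178, 424, 112, 256, 208, 113 and 144. At 0.2, in the same order, they were 511, 631, 1346, 448, 989, 668, 472 and 504. Removal of the length trend left 111 in RUN and 281 in L-RUN, counted over the 12765 expressed genes with a matched length in place of 13550. A baseline averaged over LD and CE left 84 in RUN and 273 in L-RUN. Members called in L-RUN against LD went from 2 to 1 at 0.4, with quantile normalization and with the length trend removed. At 0.2, 1 member was called in CE and 1 in RUN against LD, 2 in CE against L-RUN and 2 in H-RUN against L-RUN. Gabbr2 lost its call in H-RUN against L-RUN (0 members) at 0.4, with quantile normalization (0.29) and with the length trend removed (0.27), and in CE against RUN (0 members) at 0.4 and with the length trend removed (0.299). It kept the call in CE against L-RUN in each of these, between 0.45 and 0.49. That is the pair on which Gabbr2 was chosen, so the kept call is a description. Against the baseline averaged over LD and CE, Gabbr2 was -0.41 and Kctd16 -0.32 in L-RUN. That baseline lies above LD for Gabbr2 and below LD for Kctd16, because CE does. Of the 5 genes most like Gabbr2, 3 were shared without RUN and 0 with Pearson correlation as the measure. Causes were not tested. The depth is unknown, pools hide variation between mice, and the low levels of Kctd8 and Kctd16 limit what their differences can show. No paired analysis was possible because each group has 1 library.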

Other observations

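The wider Kctd family, whose products share a domain with the auxiliary subunits but mostly serve other complexes such as ubiquitin ligases, showed no call. Of 19 other Kctd genes 18 were expressed, and 0 reached the cut-off against LD in any group, where 0.598% (CE) to 3.13% (L-RUN) of all expressed genes did, so that 0 of 18 is near the background. The differences farthest from LD were those of Kctd1 (0.22 in H-RUN), Kctd10 (-0.20 in L-RUN), Kctd4 (-0.19 in CE) and Kctd13 (0.19 in CE). Kctd12b, a close relative of Kctd12 that also binds the receptor, had rlog values of 7.05 in LD and 7.15 in CE, against 7.10 in RUN, with 7.08 for the low and 6.99 for the high runners, and it was looked at after its values were seen.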
